A study of Arabidopsis thaliana with 34 samples.

Results

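The comparison described here set seedlings of the deletion line pAP142 against seedlings of the deletion line pAP141, both collected in the evening. It took 7 of the 34 samples of the series, chosen by their titles: 3 pools of pAP142 (T4) and 4 pools of pAP141 (T4), with every gene considered. Both lines are in the Col-0 background of Arabidopsis thaliana and each is homozygous for the loss of 1 duplicated chromosomal block, so neither group is undeleted and each keeps the block that the other lacks. The deletions were made with SaCas9, a small Cas9 nuclease, under an egg cell-specific promoter together with a pair of guide RNAs, and the study's supplement marks T4 plants of both lines as null segregants, which no longer carry the T-DNA. Each genotype is represented by 1 line, so the deletion and anything else that line carries cannot be told apart. The study compared structural variants across the genome and found a significant divergence from Col-0 in pAP142 lines but not in pAP141 lines. It names subline differences or effects of the transformation as possible reasons. The bearing of that divergence on the expression differences was not tested. Every sample was RNA from several whole seedlings grown about 2 weeks on plates in long days, and the same pair of lines was also sampled in the morning (3 pools of pAP142 and 2 of pAP141). The 4 evening pools of Col-0 are given beside some of the named genes and lists for reference. Unless Col-0 is named, rose and fell describe pAP142 relative to pAP141.

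After ancient whole-genome duplications the Arabidopsis genome kept many pairs of syntenic blocks, in which a gene on 1 chromosome has a paralogue in the partner block. The block lost in pAP141 carried tandem arrays of lectin receptor kinases and RING finger proteins together with a tetraspanin and a DOF transcription factor. The block lost in pAP142 carried a gene for ribosomal protein S24e of the cytosolic small subunit, a cysteine desulfhydrase and a WNK kinase. Ribosomes of plant cells are built in the cytosol, the plastid and the mitochondrion from separate protein sets, and stress to ribosome assembly in Arabidopsis is read partly through NAC transcription factors. Anthocyanin pigments, salicylic acid defence and the dark-inducible response to low energy are inducible programs that many stresses engage in seedlings.

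The target sites of the guide pairs are shown because they set the ends of both deletions. Each line gives the spacer in lower case and the adjoining PAM, the short motif that SaCas9 needs, in capitals. The spacers were taken from the study's list and placed on the RefSeq TAIR10.1 assembly, where each matched once.
pAP141 left: ggagtttcaactccggtgttaATGGGT
pAP141 right: ggtaagcttgtccgagctatgGTGGGT
pAP142 left: gaagagtctctcgtttgtgcgGAGGGT
pAP142 right: gctgatggagtataccgatgtTCGGGT

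The pAP141 sites lie at chr3:16632566-16632592 on the minus strand, in the coding sequence of AT3G45330, and at chr3:16747522-16747548 on the plus strand, in the coding sequence of AT3G45620. With breaks placed 3 bases from each PAM, 115.0 kb lie between them. The pAP142 sites lie on the plus strand at chr5:10029550-10029576, between annotated genes, and at chr5:10279368-10279394, in the coding sequence of NEK3 (AT5G28290). They enclose 249.8 kb. RNA levels of the genes in both blocks checked the labels.

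Every gene of a deleted block that could be tested was lower in the line that lacks it, except NEK3, which the right break of pAP142 cuts. Such genes could be tested only through reads in samples that keep the block, so their calls check the labels alone. Some listed genes had at most 3 counts in every evening sample of the other line. They were 12 of 27 for the pAP141 block and 7 of 16 for the pAP142 block. Of the 27 listed genes of the pAP141 block, 13 were tested, and all 13 were called lower in pAP141 and had 0 counts in each of its 4 evening samples. For AT3G45390, a lectin receptor kinase gene that reached only 0.0884 TPM in pAP142, the groups overlapped at 0 and the call was lost without any 1 of the pAP141 samples or without pAP142 replicate 1 (adjusted p up to 0.23). The highest among them, TET3 (AT3G45600), a tetraspanin, had 32.0, 26.3 and 30.4 TPM (transcript abundance scaled to length and to the library total) in pAP142 and 0 in each pAP141 sample. Its estimated counts in pAP142 ran from 1451 to 1756, and their mean was at least 520.5-fold higher, set against a floor of 3 counts per library. Of the 16 listed genes of the pAP142 block, 8 were tested, and 7 were called lower in pAP142.

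The most abundant of those 7 was AT5G28060, which encodes ribosomal protein S24e. It stood at 737, 769, 706 and 687 TPM in pAP141 and at 0.162, 0 and 0.183 TPM in pAP142, and Col-0 lay between 653 and 738 TPM. The samples of pAP142 were at or next to 0 and far from both other groups. AT5G28050, a cytidine or deoxycytidylate deaminase family gene, had 102, 107, 75.7 and 93.1 TPM in pAP141 and 0 in all 3 pAP142 samples. NEK3, a NIMA-related kinase gene, kept reads in pAP142, with 8.17, 11.2 and 10.7 TPM against 6.17, 6.32, 9.70 and 7.02 TPM in pAP141, and was not called (log2 fold change 0.32 ± 0.12 SE, adjusted p = 0.052). These groups overlapped.

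**Figure D1:**
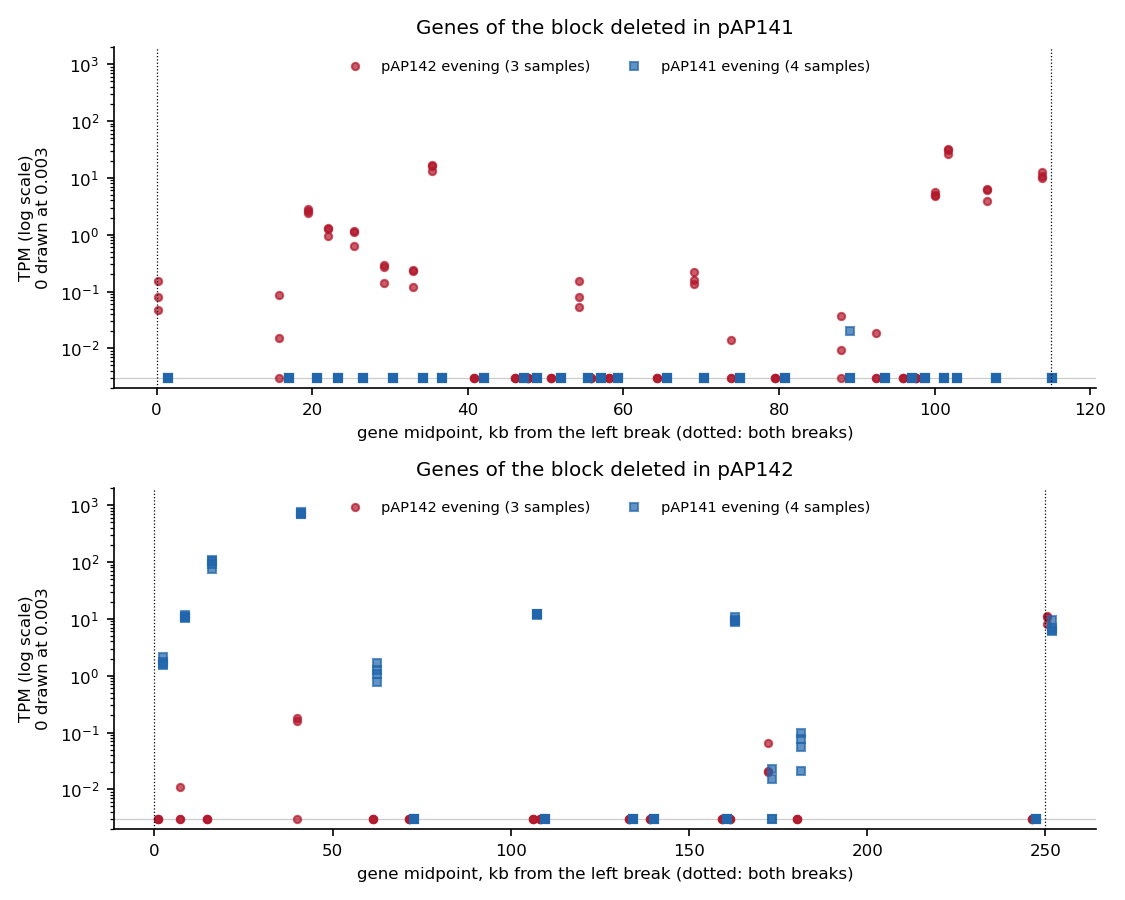
TPM of each gene in the 2 deleted blocks (log scale, 0 drawn at 0.003) against the distance of its midpoint from the left break in kb, for the 3 pAP142 (circles) and 4 pAP141 (squares) evening samples. The pAP142 and pAP141 points of a gene are drawn slightly apart. Each line is under 1 TPM across its own block, except for NEK3 at the right end of the pAP142 block, where both lines lie between 6.17 and 11.2 TPM.

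Paralogues that stayed in the partner blocks differed little, with 1 large exception. Of 7 tested paralogues of the pAP142 block, 2 were called (28.4% of all genes were), both lower in pAP142: CYSD1 (AT3G04940), a cysteine synthase, by -0.37 ± 0.07 (log2, adjusted p = 0.0013), and the kinase WNK1 (AT3G04910), by -0.32 ± 0.10 (adjusted p = 0.025). The WNK1 call was lost without pAP142 replicate 2 or 3 or without pAP141 replicate 1 or 3 (highest adjusted p = 0.12). The other S24e gene, AT3G04920, had 579, 562 and 644 TPM in pAP142, 537, 556, 496 and 480 TPM in pAP141 and 498, 513, 457 and 467 TPM in Col-0. The values of the lines did not overlap on the TPM scale, but their fitted difference was 0.04 ± 0.10 (adjusted p = 0.78), since TPM ratios of the lines sat 0.14 above the fitted log2 fold changes in the median of genes over 1 TPM. Against Col-0 its fitted difference was 0.32 ± 0.10 for pAP142 (adjusted p = 0.042) and 0.27 ± 0.10 for pAP141 (adjusted p = 0.14).

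Of 5 tested paralogues of the pAP141 block, 1 was called. AT5G60250, a C3HC4-type RING finger gene at chr5:24252138-24255900 and the partner of a tandem group of 11 deleted genes, most of them annotated as RING finger or IBR domain proteins, had 3.60, 4.04 and 4.90 TPM in pAP142 and 0.230, 0.222, 0.368 and 0.282 TPM in pAP141. Every pAP142 sample lay above every pAP141 sample, and the difference was 3.79 ± 0.24 (adjusted p = 1.1e-08). In Col-0 it stood at 0.558, 0.407, 0.576 and 0.394 TPM. The rise was thus on the side of pAP142, the line that still carries its deleted partners, and the morning difference was 3.21 (adjusted p = 8e-06).

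Across all genes the lines differed widely. Of 21356 genes tested, 3012 were called higher and 3058 lower in pAP142, 28.4% of all (14.1% higher and 14.3% lower), by edgeR's quasi-likelihood test at an adjusted p under 0.05. The median size of a called change was 0.59 on the log2 scale, and with a change of at least 2-fold also required, 1022 genes (4.79%) were higher and 689 (3.23%) lower, 8.01% in all. The share called was near the same on every chromosome, from 26.8% on chromosome 3 to 29.2% on chromosome 5. Scaling by the library total alone moved the split to 3382 higher and 2284 lower and the median of all genes from 0.00 to 0.08. Without pAP142 replicate 2 there were 1807 genes higher and 1700 lower, and without pAP142 replicate 3, 1983 and 1721. Estimated counts per sample ran from 38445665 to 43851997 in pAP142 and from 35819444 to 41852467 in pAP141.

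The largest increases were carried by stress-inducible enzymes, a thioredoxin and the anthocyanin genes. GLYI7 (AT1G80160, chr1:30150897-30152614), of the glyoxalase I family that detoxifies methylglyoxal, had 84.8, 104 and 83.9 TPM in pAP142 and 2.03, 1.56, 1.16 and 2.42 TPM in pAP141. Its difference was 5.51 ± 0.60 (adjusted p = 1.5e-05). TH8 (AT1G69880, chr1:26321398-26323002), an h-type thioredoxin, had 125, 99.6 and 132 TPM against 3.31, 3.40, 4.14 and 5.28 TPM. Neither gene came near overlap between the lines, and in Col-0 they reached at most 5.56 and 12.1 TPM.

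NAC044 (AT3G01600, chr3:229075-231517), a NAC transcription factor that acts in the arrest of the cell cycle after DNA damage, had 13.3, 10.5 and 19.7 TPM in pAP142. In pAP141 it had 0.395, 0.749, 0.693 and 0.782 TPM, so that the lowest pAP142 sample was far above the highest pAP141 sample. The difference was 4.34 ± 0.27 (adjusted p = 1.1e-08), and in the morning it was 4.08 (adjusted p = 2.1e-06). The remaining leading increases outside the anthocyanin pathway were DIN2, a dark-inducible beta-glucosidase (5.11 ± 0.62), CYP82C2, a cytochrome P450 of indole metabolism (4.65 ± 0.54), LRE, a membrane-anchored protein known from pollen tube reception (5.15 ± 0.64), LTP4, a lipid transfer protein (8.03 ± 1.16), and the uncharacterized AT1G64795 and AT5G39520 (5.37 ± 1.05 and 4.97 ± 0.56). LTP4 was at 0 in 3 of 4 pAP141 samples and at 13.4, 1.43 and 10.2 TPM in pAP142, so the size of its change is uncertain.

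The 12 largest decreases included 2 defensin genes, a root hair gene and a root channel gene. PDF1.2 (AT5G44420, chr5:17906968-17907638), the antifungal defensin induced by jasmonate and ethylene, had 3.64, 3.29 and 3.34 TPM in pAP142 and 109, 27.7, 24.7 and 29.9 TPM in pAP141. The pAP141 sample at 109 TPM stood apart, yet the other 3 also lay above all pAP142 samples, and the difference was -3.98 ± 0.80 (adjusted p = 0.0019). Its close copy PDF1.2c (AT5G44430) had 0.450, 0 and 0 TPM against 48.1, 12.6, 11.2 and 17.0 TPM. Reads shared by such close copies can be split unevenly by the authors' counting. In Col-0, PDF1.2 ranged from 5.15 to 18.3 TPM, below all 4 pAP141 samples and above all 3 pAP142 samples.

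TIP2;3 (AT5G47450), a tonoplast channel of roots, had 2.71, 0.855 and 1.70 TPM in pAP142 and 15.2, 17.44, 10.45 and 17.5 TPM in pAP141. The lines did not overlap, and Col-0 was at 9.16 to 19 TPM. RHS13, a cell wall protein specific to root hairs (-3.68 ± 0.71), the peroxidase genes AT4G26010 and AT1G05240 (both -3.64), the CAP family gene AT5G57625 (-3.62 ± 0.60), MLP329 of the major latex proteins (-3.47 ± 0.54), the lipid-transfer family gene AT5G46890 (-3.33 ± 0.66) and FTM1, a stearoyl-ACP desaturase (-3.72 ± 0.65), fell as well. In all of these pAP142 replicate 2 was the lowest sample and replicate 1 the highest (RHS13 0.0379 and 1.65 TPM, MLP329 4.42 and 32.0 TPM). AT3G49540 (-6.17 ± 1.56) and AT1G12805 (-4.25 ± 0.75) completed the leading decreases, and the former spread from 0.144 to 14.0 TPM among the pAP141 samples.

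The root markers moved with these genes. Of 12 root markers tested, 6 fell and 1 rose, a share called of 58.3% against 28.4% of all genes. The median of the markers was -1.11 against 0.00 over all genes. Their summed level was 500 to 658 TPM in pAP142, 951 to 1135 TPM in pAP141 and 1037 to 1219 TPM in Col-0, and no marker was at 0 in every sample of a line. PYK10, the abundant beta-glucosidase of root ER bodies, had 584, 439 and 517 TPM in pAP142 and 932, 838, 918 and 1046 TPM in pAP141, a difference of -0.99 ± 0.15 (adjusted p = 0.00024). COBL9 (named SHV2 in RefSeq), which shapes root hairs, the expansin EXPA7 of root hair tips, PRP3, CASP1 and CASP2 also fell, while SCR rose by 0.44. Without pAP142 replicate 2, and likewise without replicate 3, 3 of the 12 were lower, and CASP2 was among the calls lost (adjusted p up to 0.074). In whole seedlings, fewer cells of a type and less RNA per cell cannot be told apart. The part of root tissue in the other results was not tested.

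**Figure D2:**
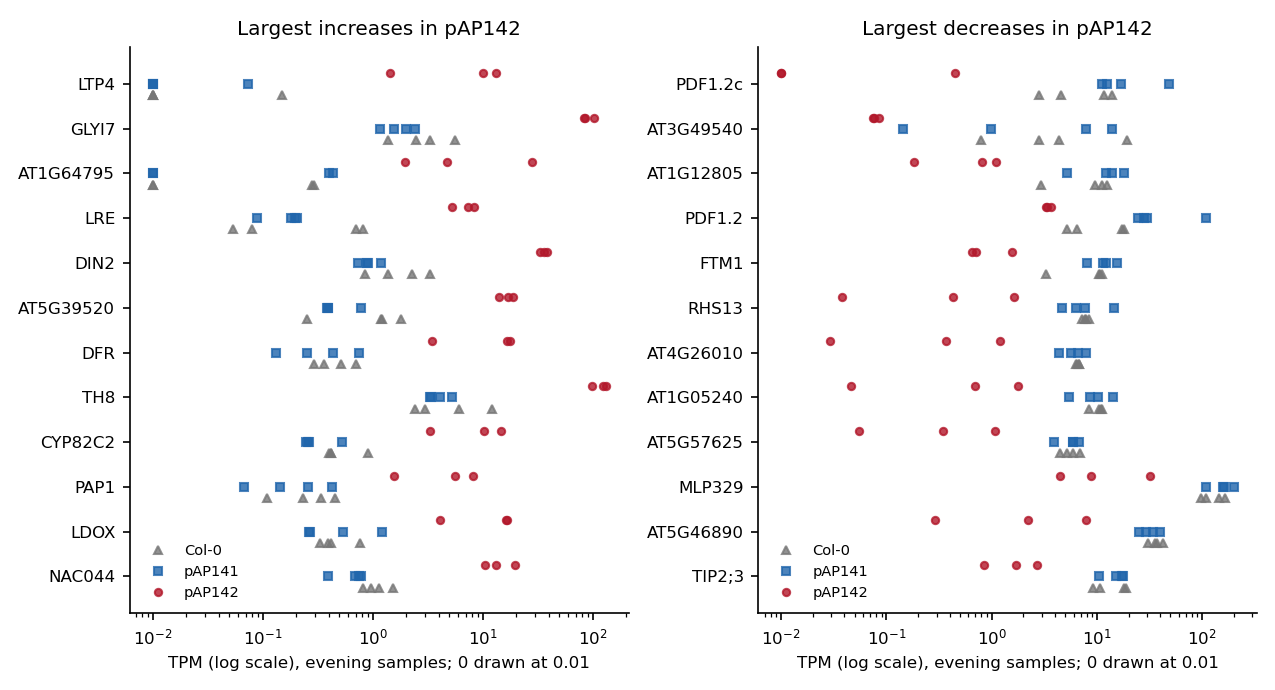
TPM (log scale, 0 drawn at 0.01) of the 12 genes with the largest increases (left) and the 12 with the largest decreases (right) in every evening sample: 3 of pAP142 (circles), 4 of pAP141 (squares) and 4 of Col-0 (triangles). By the rule that chose them, the pAP142 and pAP141 points do not overlap for any gene. The Col-0 points lie with those of pAP141 for most genes, and lower than them for PDF1.2.

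The anthocyanin pathway was higher in pAP142 from its regulators to its late enzymes. Of 25 flavonoid and anthocyanin genes tested, 17 were called higher and none lower (14.1% of all genes were called higher), with a median of 0.69 against 0.00. PAP1, the MYB activator of anthocyanin synthesis, had 5.6, 1.58 and 8.27 TPM in pAP142 and 0.144, 0.0672, 0.427 and 0.257 TPM in pAP141 (4.41 ± 0.63, adjusted p = 0.00014). Its bHLH partner TT8 had 1.76, 1.2 and 3.03 TPM against 0.0939, 0.130, 0.149 and 0.15 TPM (3.79 ± 0.32). Both regulators were lowest in pAP142 replicate 2, and neither overlapped between the lines.

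Enzymes that act late in the pathway were likewise lowest in pAP142 replicate 2. DFR, which reduces dihydroflavonols, had 16.6, 3.5 and 17.9 TPM in pAP142 and 0.254, 0.132, 0.758 and 0.440 TPM in pAP141 (4.91 ± 0.69, adjusted p = 0.00014). LDOX, which makes the colored anthocyanidins, had 16.7, 4.1 and 16.4 TPM against 0.263, 0.272, 1.22 and 0.544 TPM (4.35 ± 0.62). Even in that replicate both were at least 3 times above the highest pAP141 sample. The glutathione transferase TT19 (named GSTF12), which carries anthocyanins to the vacuole, the acyltransferase 5MAT and the glycosyltransferase UGT79B1 (named UF3GT) rose by 3.82, 4.65 and 5.06.

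MYB11 and MYB111, activators of flavonol synthesis, rose by 3.24 ± 0.38 (adjusted p = 1.8e-05) and 1.55 ± 0.21 (adjusted p = 7.5e-05). MYB11 had 1.23, 1.07 and 1.74 TPM in pAP142 and 0.0825, 0.0599, 0.223 and 0.155 TPM in pAP141, with no overlap. Early enzymes shared with flavonols had smaller differences. Chalcone synthase CHS (named TT4) had 195, 173 and 232 TPM in pAP142 and 108, 145, 162 and 112 TPM in pAP141, a rise of 0.47 ± 0.16 (adjusted p = 0.039). F3H at 0.12, FLS1 at 0.23 and the regulator TTG1 at 0.15 were not called, and the repressor MYBL2 stood at -0.64, also not called. The list count was 15 to 17 whichever of the 7 samples was left out.

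The DFR upstream window is shown because this gene had the largest rise of the pathway genes that entered the 12 largest increases and holds a G-box, the core CACGTG that bHLH factors recognize. The window is the 250 bases before the annotated start, chr5:17166033-17166282 on the minus strand of RefSeq TAIR10.1, with the G-box in capitals.
DFR upstream: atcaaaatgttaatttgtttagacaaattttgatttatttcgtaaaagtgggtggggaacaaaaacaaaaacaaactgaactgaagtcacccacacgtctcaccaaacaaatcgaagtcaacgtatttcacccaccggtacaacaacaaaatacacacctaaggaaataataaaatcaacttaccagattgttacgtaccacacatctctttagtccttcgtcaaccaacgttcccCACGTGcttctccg

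The motif, which reads alike on both strands, starts 14 bases before the annotated start. Among the 25 tested genes of the list, 7 had CACGTG in such a window (28%), against 7.22% of the tested genes with a window. The 7 were CHS, CHIL, F3H, DFR, UGT79B1, PAP2 (named MYB90) and MYB12, of which 5 were called higher and F3H and MYB12 were not called. In the whole list 17 of 25 were called higher, so the motif did not mark the called genes. Of all genes called higher, 7.29% had it. A match describes the letters alone.

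Genes of salicylic acid defence were higher in pAP142. Of 21 tested, 12 were called higher and 1 lower, with a median of 1.02. That is a share called of 61.9%, against 28.4% of all genes. PR2 (named BGL2), a beta-1,3-glucanase, had 1.24, 7.25 and 2.52 TPM in pAP142 and 0.145, 0.230, 0.229 and 0.0992 TPM in pAP141 (4.18 ± 0.58, adjusted p = 1e-04). PR5, a thaumatin-like protein, had 21.4, 18.9 and 22.8 TPM against 8.11, 6.81, 9.63 and 9.85 TPM (1.16 ± 0.20, adjusted p = 0.00054). Both were separate between the lines, with PR2 spread widely among the pAP142 samples and PR5 hardly at all.

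PR1 rose by 3.13 ± 0.83 from low levels, with 0.437, 0.629 and 2.2 TPM in pAP142. PBS3, needed to make salicylic acid from isochorismate, rose by 2.92, the regulators SARD1 and CBP60G by 1.93 and 1.27, and WRKY70 by 1.02. ICS1, which makes isochorismate, rose by 0.66, while the exporter EDS5 was the gene that fell (-0.60), a call that was lost without pAP141 replicate 1 or 4 or any 1 of the pAP142 samples. EDS1 at -0.09, NPR1 at 0.03 and ALD1 at -0.73 were not called. Without pAP142 replicate 2 the list had 7 genes higher, and without replicate 3 it had 8.

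Jasmonate genes divided. Of 25 tested, 6 fell and 2 rose, with a median of -0.33. The share called in either direction was 32%, near the 28.4% of all genes. Beside PDF1.2, the repressors JAZ8, JAZ9 (named TIFY7), JAZ2 (named TIFY10B) and JAZ6 and the regulator MYC2 fell, MYC2 by -0.34. VSP2, a vegetative storage protein and classic jasmonate marker, moved the other way, with 10.2, 4.23 and 3.86 TPM in pAP142 and 0.340, 0.309, 1.37 and 0.778 TPM in pAP141 (3.05 ± 0.59, adjusted p = 0.0014). LOX2, which starts jasmonate synthesis in leaves, rose by 0.87. The JAZ8 call was lost without pAP142 replicate 2 or pAP141 replicate 4 (adjusted p up to 0.072).

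Dark-inducible and low-energy genes were higher in pAP142 almost throughout. Of 14 tested, 12 were called higher and none lower (85.7% called, against 28.4% of all genes), with a median of 1.0. In 13 of the 14 every pAP142 sample was above every pAP141 sample on the TPM scale (19.7% of all genes were, 10.4% were below, and 30.1% did not overlap in either direction). ASN1, the asparagine synthetase induced in darkness, had 89.0, 108 and 86.2 TPM in pAP142 and 6.74, 4.14, 8.91 and 12.7 TPM in pAP141 (3.43 ± 0.43, adjusted p = 6e-05). EXL2 had 293, 297 and 266 TPM against 93.8, 90.7, 98.8 and 98.0 TPM (1.44 ± 0.17, adjusted p = 2.2e-05). For both, the pAP142 samples lay close together and far from pAP141.

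The branched-chain aminotransferase BCAT2 rose by 2.77, DIN1 by 1.95, DIN9 by 1.57, DIN10, a raffinose synthase, by 1.11, and the trehalose phosphate synthase family members TPS8, TPS10 and TPS11 by 0.43, 0.78 and 0.90. TPS9 at 0.23 and DIN11 at -1.39 were not called. The list count was 11 or 12 whichever sample was left out. In Col-0 the summed level of these genes was 369 to 715 TPM, against 338 to 521 TPM in pAP141 and 1146 to 1389 TPM in pAP142.

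Photosynthesis genes of the nucleus were lower in pAP142 than in pAP141, with Col-0 between them in the median. Against Col-0 the photosystem list had a median of -0.28 for pAP142 and 0.28 for pAP141. The light-harvesting and Rubisco list had -0.24 and 0.23. Of 30 photosystem and electron transport genes, 17 fell and none rose (median -0.52), and of 25 light-harvesting and Rubisco genes, 10 fell and 1 rose (median -0.44). These are shares called of 56.7% and 44%, against 28.4% of all genes. LHCB1.4 (named LHB1B1, chr2:14524607-14525918), a chlorophyll-binding antenna protein of photosystem II, had 176, 197 and 103 TPM in pAP142 and 1279, 625.1, 1097 and 1126 TPM in pAP141. The groups were apart, and the difference was -2.83 ± 0.42 (adjusted p = 0.00021). LHCB1.3 (named CAB1) had 4101, 3092 and 3095 TPM against 7542, 5652, 6996 and 7349 TPM, a fall of -1.13 ± 0.22. The LHCB1 genes are close copies whose reads may be split among them. Among the photosystem genes PSAE2 and PSAK, subunits of photosystem I, fell by -0.91 and -0.87, and plastocyanin PETE2 (named DRT112) and ferredoxin FD2 (named FED A) by -0.79 and -0.63, while PSAD1 and PSAD2 stood at 0.33 and 0.34 and were not called.

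Within the antenna family the changes were unequal. LHCB1.2 (named CAB3) and LHCB1.5 (named LHB1B2) fell by -1.44 and -1.28, LHCB3 and LHCB5 by -1.0 and -0.79, and LHCA2 and LHCA3 by -0.66 and -0.63. LHCB1.1 at -0.04, LHCB2.1 at 0.03 and LHCB2.2 at -0.02 were not called, and LHCB4.3 rose by 0.67. The Rubisco small subunit genes, between -0.43 and -0.23, were not called. Of 24 chlorophyll biosynthesis genes 9 fell and 1 rose (5 fell without pAP142 replicate 2), a share called of 41.7% against 28.4% of all genes. Of the called genes PCB2, which reduces divinyl chlorophyllide, fell most (-0.66), and CAO, which makes chlorophyll b, rose (0.57), while PORA at -1.35 was not called. The counts of photosystem and antenna genes lower were 4 and 5 without pAP142 replicate 2, and likewise 4 and 5 without replicate 3, and they were 24 and 17 without replicate 1. Without pAP141 replicate 1, 10 photosystem genes were lower. The summed level of the antenna and Rubisco list was 46127 to 59402 TPM in pAP142 and 62706 to 73641 TPM in pAP141.

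Plastid ribosomal proteins were lower in pAP142 than in pAP141 nearly as a set, while those of the cytosolic ribosome were not. Against Col-0 the median of the plastid list was -0.23 for pAP142 and 0.25 for pAP141. That of the cytosolic list was 0.30 for pAP142 and 0.27 for pAP141. Of 39 nuclear-encoded plastid ribosomal protein genes, 35 were called lower and none higher, with a median of -0.52 and a range from -0.71 to -0.06. In this list 89.7% were called, where 14.3% of all genes were lower. RPS9 (AT1G74970) had 254, 219 and 239 TPM in pAP142 and 332, 328, 344 and 325 TPM in pAP141 (-0.62 ± 0.13, adjusted p = 0.0017). The samples of each line lay close together, with no overlap. The count was 14 without pAP142 replicate 2 and 18 without replicate 3.

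Of 220 cytosolic ribosomal protein genes, 16 were called higher and 1, the deleted S24e gene, lower, with a median of 0.04. The share called was 7.73%, below the 28.4% of all genes. Those with the largest changes were weakly expressed copies of their families, though abundant members such as RPS5A (0.37) and an RPL4 gene, AT3G09630 (0.70), were also among the 16. AT3G09680, for small subunit protein S23, had 14.8, 13.9 and 21.2 TPM in pAP142 and 2.13, 2.87, 2.51 and 2.05 TPM in pAP141 (2.64 ± 0.19, adjusted p = 8.2e-08). AT2G40010, for the stalk protein family of P0, rose by 1.36 ± 0.11, and AT5G59240 for S8 and AT5G39850 for S9 rose by 1.35 and 1.05. None of these 4 overlapped between the lines. They have close paralogues, so their reads could be shared. Offsets for coding length raised the count of the list from 16 to 70 higher and its median to 0.14, and scaling by library total raised them to 43 and 0.12. Without pAP142 replicate 3 the count was 8.

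Of 22 genes of ribosome biogenesis 7 were called higher and none lower (median 0.20), and 3 were higher without pAP142 replicate 3. The share called was 31.8%, where 14.1% of all genes were higher and 28.4% were called in either direction. NUC-L2, the inducible nucleolin of the nucleolus, was the exception in size, with 5.54, 4.06 and 5.96 TPM in pAP142 and 0.415, 0.637, 0.633 and 0.719 TPM in pAP141 (2.99 ± 0.22, adjusted p = 7.2e-08). Fibrillarin FIB2 rose by 0.60, NOP56 by 0.44 and the pseudouridine synthase NAP57 by 0.45. Its partner NUC-L1 at 0.13 and FIB1 at 0.17 were not called. The NAP57 call was lost without pAP142 replicate 3 (adjusted p = 0.086). Of 10 DNA damage genes, BRCA1, PARP2 and RAD17 rose (0.84, 0.56 and 0.51) and none fell, a share called of 30%.

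**Figure D3:**
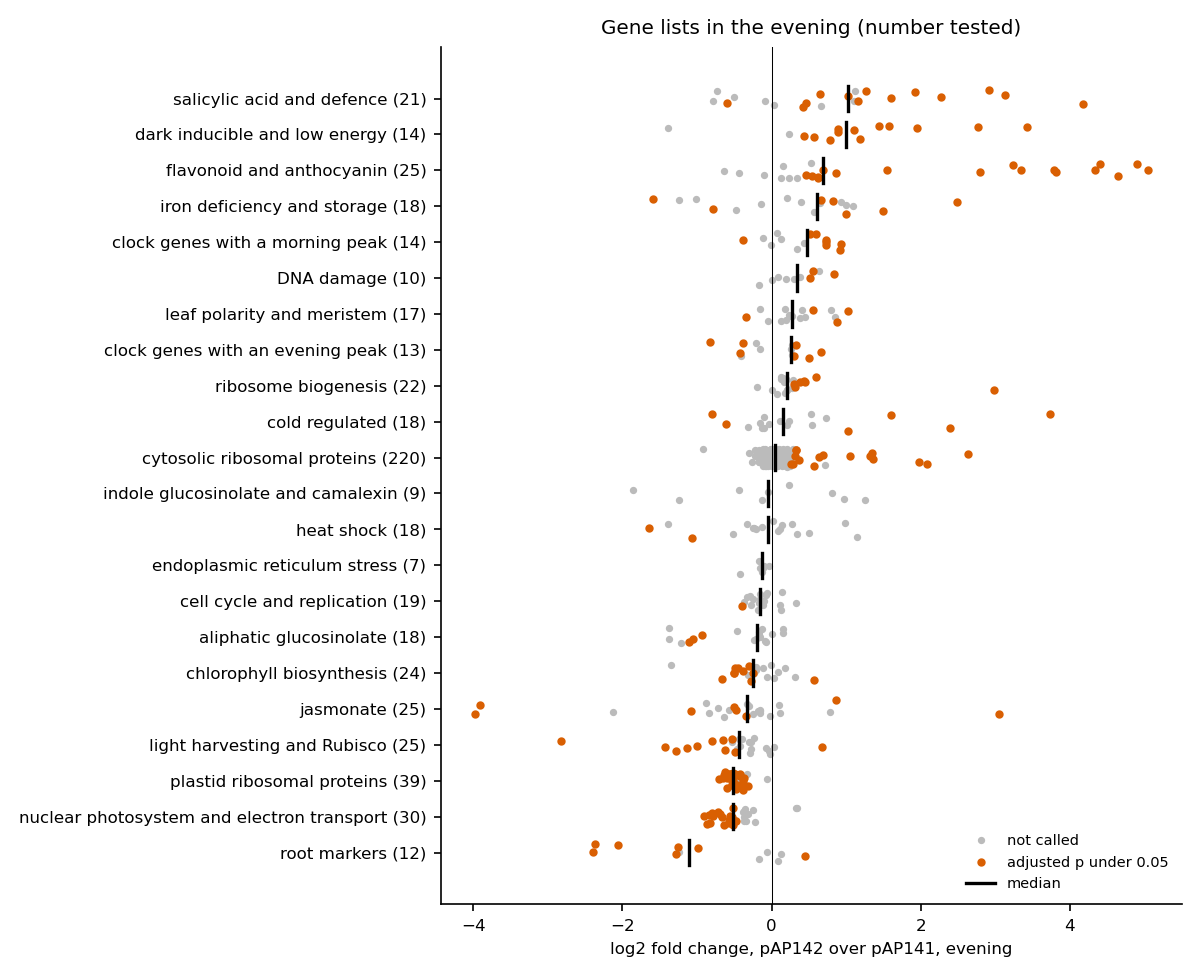
Log2 fold change of pAP142 over pAP141 in the evening for every tested gene of the 22 lists, with called genes in orange, others in gray and the median as a bar. The deleted S24e gene, at -12.72, lies outside the range drawn. Plastid ribosomal proteins lie in a narrow band below 0 and photosystem genes in another with PSAD1 and PSAD2 above 0 (medians -0.52), while flavonoid and salicylic acid genes spread up to 5.06 and 4.18.

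Several clock genes with a morning peak were higher in pAP142 in the evening. Of 14 tested, 7 rose and 1 fell (57.1% called, against 28.4% of all genes), with a median of 0.48. Without pAP141 replicate 1, 4 were higher. PRR7, a repressor of the morning loop, had 7.66, 6.76 and 8.88 TPM in pAP142 and 2.73, 2.91, 4.86 and 4.46 TPM in pAP141 (0.94 ± 0.16, adjusted p = 0.00051). LHY, a central morning MYB factor near its daily low at this time, had 0.580, 0.692 and 0.790 TPM against 0.295, 0.350, 0.468 and 0.396 TPM (0.73 ± 0.18, adjusted p = 0.0067). Neither overlapped between the lines. Col-0 reached from 4.53 to 6.35 TPM for PRR7, below pAP142 and across the upper end of pAP141, and from 0.478 to 0.82 TPM for LHY, across pAP142 and above pAP141.

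RVE8, PRR9, LNK1, LNK2 and LNK4 (AT5G06980) rose too, by 0.52 to 0.92, RVE4 fell by -0.38, and CCA1 at 0.44 was not called. Among 13 clock genes with an evening peak, 4 rose and 3 fell (53.8% called, against 28.4% of all genes). GI, ELF3, ZTL and GRP8 (named CCR1) rose, by 0.66, 0.50, 0.33 and 0.30, and CHE, LUX and GRP7 fell, by -0.83, -0.43 and -0.38. The GI and ELF3 groups overlapped. The 4 became 2 without pAP142 replicate 3, and the 3 became 1 without pAP142 replicate 2. The call of GI was lost without pAP142 replicate 3 and that of ELF3 without pAP142 replicate 2 or 3 or pAP141 replicate 1 or 2 (adjusted p up to 0.090). The exact hour of collection of each sample is not given in the sources used here.

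Genes of iron status differed on the side of pAP141. OPT3, the phloem iron transporter, had 55.0, 51.4 and 53.9 TPM in pAP142, 29.9, 24.5, 34.6 and 35 TPM in pAP141, and 47.1, 59.0, 54.6 and 58.2 TPM in Col-0. BTS, the E3 ligase that limits iron uptake, had 23.0, 20.7 and 19.3 TPM in pAP142 against 9.0, 8.82, 12.9 and 13.2 TPM in pAP141 and 16.7 to 28.2 TPM in Col-0. For both, pAP142 lay within the range of Col-0, and pAP141 lay below all of them. Of 18 iron genes tested, 5 rose and 2 fell (median 0.61), a share called of 38.9% against 28.4% of all genes. The count of higher genes was 2 without pAP142 replicate 1, 8 without pAP142 replicate 2 and 3 without pAP141 replicate 3 or 4. FIT, the root regulator of iron uptake, was 1 of the 2 that fell (-1.59 ± 0.31), beside the ferritin FER4 (-0.79). The calls of the peptide genes IMA2 (AT1G47395) and IMA3 (AT2G30766) were lost without pAP142 replicate 1, with IMA3 also lost without pAP141 replicate 3 or 4 (adjusted p up to 0.18).

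The remaining groups changed in few members. Of 18 cold-regulated genes 4 rose and 2 fell, a share called of 33.3% against 28.4% of all genes. COR15A, a chloroplast protein that protects membranes in the cold, had 79.3, 9.66 and 18.7 TPM in pAP142 and 2.09, 2.06, 3.87 and 2.1 TPM in pAP141, with the highest pAP142 sample far from the rest (3.74 ± 0.57, and 2.29 without pAP142 replicate 1). COR15B rose by 1.61, and COR47 and COR413-PM1 fell by -0.81 and -0.60. Of 17 leaf polarity and meristem genes, AS2, KAN2 and PHV rose (1.03, 0.88 and 0.56) and YAB5 fell (-0.34), a share of called genes below the 28.4% of all genes. The higher count was 7 without pAP142 replicate 1 and 6 without pAP141 replicate 3, and YAB5 was not called without pAP141 replicate 1 or 2 or pAP142 replicate 2 or 3. KAN2 had 4.73, 6.38 and 5.51 TPM in pAP142, 1.89, 1.96, 3.98 and 3.28 TPM in pAP141 and 4.03 to 5.12 TPM in Col-0. The PHV call was lost without pAP142 replicate 2 or 3 or pAP141 replicate 1 or 2 (adjusted p up to 0.12).

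Among 18 aliphatic glucosinolate genes, CYP83A1, FMO GS-OX1 and MAM1 fell (-0.94, -1.11 and -1.05), and all 3 overlapped between the lines. They make up 16.7% of the list, below the 28.4% called of all genes. No gene of the list was lower without pAP142 replicate 2 or without replicate 3, and 6 were without replicate 1. Of 9 indole glucosinolate and camalexin genes none was called (3 were higher without pAP142 replicate 1), and of 7 genes of endoplasmic reticulum stress none was. Heat shock genes gave 2 of 18 lower, ROF2 and HSP17.6II, the call of the latter resting on each of 5 samples in turn (adjusted p up to 0.16). Of 19 cell cycle genes PCNA2 alone was called, at -0.39, and it was not called without pAP142 replicate 2 (adjusted p = 0.11). Heat shock and cell cycle lists had 11.1% and 5.26% called, also below the share of all genes.

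Near the deletions, of 11 tested genes among the 10 on either side of the pAP141 block, 5 were called lower and 1 higher in pAP142, where 14.3% of all genes were lower and 14.1% higher. Of 12 near the pAP142 block, 1 was called higher and none lower, below the 28.4% of all genes. The largest was AT3G45700, a major facilitator family gene 31.2 kb past the right break of pAP141, with 0.271, 0.0507 and 0.210 TPM in pAP142 and 1.28, 0.725, 1.05 and 1.4 TPM in pAP141 (-2.77 ± 0.43, adjusted p = 0.00026). Col-0 was at 1.4 to 1.84 TPM, so the low side was pAP142, which keeps that chromosome whole. NAXT1, a nitrate transporter, and MLO3 differed by -0.49 and -0.56, and SYP72, MPK3 and IVD by -1.28, -0.31 and 0.65, these last 3 being lost in most leave-out fits (adjusted p up to 0.17, 0.15 and 0.15). Next to the pAP142 block, AT5G28300 was higher by 0.48 ± 0.11.

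In the morning samples, which share no library with the evening ones, the lines differed in 1520 genes higher (7.12%) and 1890 lower (8.85%) in pAP142, 16% of 21356. Of the 3012 genes higher in the evening, 835 were called higher and 34 lower in the morning, and of the 3058 lower, 975 were called lower and 16 higher. The log2 fold changes of the time points correlated with r = 0.71 across all genes tested, which are not independent of each other. These include the deleted genes, whose large differences were set by the deletions at both times. The correlation without the deleted genes was not tested. Replicate 1 of the 2 pAP141 morning samples had a scaling factor of 0.743, the lowest of all 19 time-of-day samples, and without it 277 genes were higher and 228 lower. The counts in the morning thus rest heavily on that library.

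Some groups kept their median in the morning and others did not. Across all genes 7.12% were called higher and 8.85% lower in the morning, 16% in all. Of 21 salicylic acid genes 11 were higher and none lower (median 1.45), and of 25 flavonoid genes 8 were higher (median 0.51). Of 39 plastid ribosomal protein genes 7 were lower (median -0.34, and 0.02 without pAP141 morning replicate 1). TH8, GLYI7 and NAC044 were called higher again, at 5.11, 4.14 and 4.08. Of the dark-inducible genes none was higher and 1 lower (median 0.20), though 4 were higher without pAP142 morning replicate 1, the summed level of the pAP142 morning pools ran from 604 to 1489 TPM, and DIN2, which is not on the list, was called higher (2.67, adjusted p = 0.025). Of the morning clock genes none was higher and 4 lower (median -0.39), and of the cell cycle genes 9 were higher (median 0.75). Genes of endoplasmic reticulum stress, none called in the evening, had 5 higher (median 0.49). Without pAP141 morning replicate 1 these counts were 3 for salicylic acid, 2 for flavonoid, and 0 for plastid ribosomal proteins, clock, cell cycle and stress genes, and the medians of the iron, cell cycle and root marker lists were 0.11, 0.36 and -0.90.

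The difference between the time points was itself called in 294 genes (1.38%), 124 higher (0.581%) and 170 lower (0.796%) in the morning contrast, and in 13 and 23 without pAP141 morning replicate 1. LHY was among them, its difference going from 0.73 in the evening to -0.44 in the morning (change -1.17, adjusted p = 0.025). LNK4 (AT5G06980) went from 0.92 to -0.43 (adjusted p = 0.042), LHCB1.4 (LHB1B1) from -2.83 to -0.23 (adjusted p = 0.047), and PDF1.2c from -7.25 to 1.89 (adjusted p = 0.041). None of these 4 was called without pAP141 morning replicate 1 (adjusted p = 0.088, 0.16, 0.14 and 0.15), and LNK4, LHCB1.4 and PDF1.2c were not called without pAP142 morning replicate 1 either (adjusted p = 0.070, 0.063 and 0.11). Without pAP142 morning replicate 2, LHY, LNK4 and LHCB1.4 were not called (adjusted p = 0.053, 0.087 and 0.11). For ASN1, EXL2 and DIN9 the change between time points was not called.

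**Figure D4:**
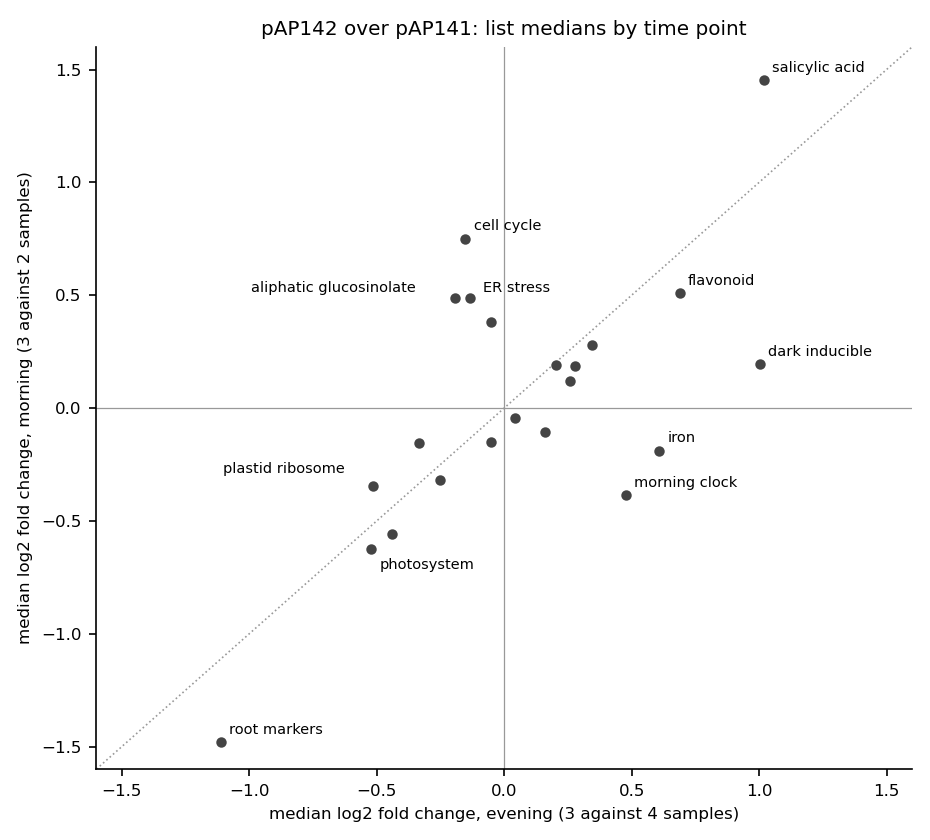
Median log2 fold change of pAP142 over pAP141 for each of the 22 lists in the evening (horizontal axis, 3 against 4 samples) and in the morning (vertical axis, 3 against 2 samples), with equal values on the dotted line. Salicylic acid genes (1.02 and 1.45), root markers (-1.11 and -1.48) and dark-inducible genes (1.0 and 0.20) have the same sign at both times. Iron (0.61 and -0.19), morning clock (0.48 and -0.39) and cell cycle genes (-0.15 and 0.75) have opposite signs. Of these, salicylic acid and cell cycle genes lie above the dotted line and the others below it. Without pAP141 morning replicate 1 the morning medians of the iron, cell cycle and root marker lists were 0.11, 0.36 and -0.90.

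The evening contrast moved with coding length. With the genes divided by listed length into 3 groups of near equal size, the median log2 fold change was -0.11 in the shortest (60 to 867 bases), -0.03 in the middle and 0.12 in the longest (1479 to 16203 bases). The calls divided likewise, with 692 higher and 1397 lower among the shortest and 1310 and 485 among the longest. Against Col-0, pAP141 went from 0.16 in the shortest to -0.18 in the longest group and pAP142 from 0.04 to -0.08. With offsets from a length curve, 3260 genes were higher and 3462 lower, and the medians of plastid ribosomal protein, photosystem, flavonoid and dark-inducible genes were -0.40, -0.42, 0.74 and 0.94. With 3 groups by abundance the medians ran from 0.05 for the lowest to -0.03 for the highest.

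**Figure D5:**
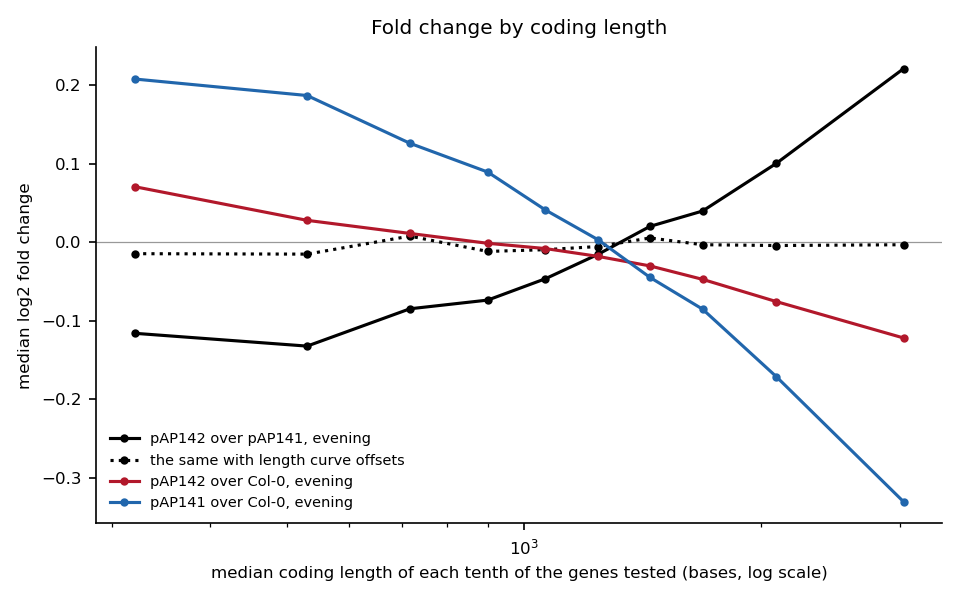
Median log2 fold change in each of 10 groups of the 21356 tested genes by coding length (log scale), for pAP142 over pAP141 without (black) and with length curve offsets (dotted), and for each line over Col-0, all in the evening. The pAP142 over pAP141 medians run from -0.12 in the shortest group to 0.22 in the longest, pAP141 over Col-0 runs the other way from 0.21 to -0.33, and the dotted line stays within 0.02 of 0.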

How the data were processed

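RNA was extracted from pooled seedlings and sequenced from stranded poly(A) libraries. Per the labels and the study's methods, the authors quantified reads with Salmon 1.6.0 against the Araport11 primary transcripts, mapped them with HISAT2 2.2.1 for inspection and ran their own tests in DESeq2 1.44.0. Estimated counts were deposited without normalization. Salmon, as run by the authors, scaled TPM to effective length and library total. The listed lengths (27538 transcripts, 99.88% multiples of 3) are those of coding sequences, so reads of untranslated regions were not counted. Log2 values and ratios were computed here.

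Estimated counts were rounded and fitted in edgeR 4.0.16 (R 4.3.3) over all 19 time-of-day samples, with 1 coefficient per group, filterByExpr, TMM scaling and the robust quasi-likelihood F test. Calls required an adjusted p below 0.05, with Benjamini-Hochberg adjustment across the 21356 genes tested. The common coefficient of variation was 0.152. Standard errors (SE) were derived from the same fits. The script was tested on simulated data. Samples were grouped by their titles. The labels do not say that pools of a line were grown apart, so p-values measure the spread between these pools. Lists are described by counts and medians, with no set test. The members and lists were chosen with earlier results of these data known. Named genes were the deleted genes, their paralogues and called neighbors, the 12 largest increases and decreases (mean of at least 5 TPM, no overlap) and, from each list, up to 4 called genes taken in order of adjusted p. Other list members are named to account for their list and were chosen after their values were seen. Names follow RefSeq TAIR10.1 or the list's own symbol. Alternatives were other scalings, filters, offsets, DESeq2 1.42.0 here, a replicate block and the omission of each sample.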

Additional observations from a re-analysis of the deposited data

Results flagged for a closer look

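Among 34 of the named genes, 5 had 1 of the 4 pAP141 evening samples standing apart from the other 3 by Dixon's ratio (over 0.829). Chance meets this criterion in about 1 of 20 groups. They were LTP4 (0.0744 TPM in replicate 2, with the others at 0), COR15A (3.87 TPM in replicate 3), PDF1.2c (48.1 TPM in replicate 1), its close copy PDF1.2 (109 TPM in the same replicate) and LNK4 (AT5G06980, 0.409 TPM in replicate 3). Without pAP141 replicate 1 the PDF1.2 difference was -3.14 (adjusted p = 0.0049).

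The difference between pAP142 and pAP141 itself differed between evening and morning for 4 of these genes by the interaction test. The change on the log2 scale was 9.14 for PDF1.2c, 2.60 for LHCB1.4 (LHB1B1), -1.17 for LHY and -1.35 for LNK4 (AT5G06980). In all 4 the call was lost without pAP141 morning replicate 1. It was also lost for LNK4, LHCB1.4 and PDF1.2c without pAP142 morning replicate 1, for LHY (adjusted p = 0.053), LNK4 (0.087) and LHCB1.4 (0.11) without pAP142 morning replicate 2, for LHCB1.4 and PDF1.2c without pAP141 morning replicate 2 (0.13 and 0.068), and for PDF1.2c without pAP142 morning replicate 3 (0.064). LHY was not called by library total (0.059), PDF1.2c not with the replicate block (0.067), and neither PDF1.2c nor LHCB1.4 without the count filter (0.052 and 0.065).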

How the results depend on the processing

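For the evening contrast, no called named gene changed direction under any alternative run (of those not called, AT3G04920 reached -0.02 and SEN2 -0.05 with a sample left out), and the counts of 3012 higher and 3058 lower stayed within 1.5 times under DESeq2 (3304 and 3442), RLE size factors, effective length offsets, length curve offsets, the library total (3382 and 2284), no count filter and the 7 samples alone (2195 and 2158). Requiring a 2-fold change left 1022 and 689. Leaving out each sample gave 1807 to 3587 higher and 1700 to 3334 lower in the evening, 277 to 1701 and 228 to 2375 in the morning, and 13 to 356 and 23 to 395 for the difference between time points. That difference had 124 and 170 genes, against 389 and 478 under DESeq2, 240 and 282 with length curve offsets and 242 and 83 by library total. The library total gave 2993 and 788 in the morning, where the median of all genes moved to 0.19. The cause of these shifts was not tested. Among 135 tested named genes, 14 lost their call without pAP142 replicate 3 and 12 without replicate 2.

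The replicate numbers were not taken to pair the samples. With group means removed, evening samples of the lines with the same number correlated between -0.016 and 0.243 (3 pairs, mean 0.132). Those with different numbers correlated between -0.187 and 0.119 (9 pairs, mean -0.044). Over all groups the means were 0.0212 for the same number (41 pairs) and -0.0081 for different numbers (108 pairs). The evening pairs thus leaned towards pairing, but so few pairs cannot decide it. With the replicate block, 2905 genes were higher and 3057 lower in the evening, 1452 and 1786 in the morning, and 111 and 152 for the difference between time points, and 5 named genes lost their call. A gene at 0 in a line can be bounded only to the floor of 3 counts per library, which covers counting error alone.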
